A study of Homo sapiens with 18 samples.

Results

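The comparison described here set an immunoprecipitate made with an antibody to RBM39 against one made with control immunoglobulin (IgG), both from MM1S cells, a human multiple myeloma line of plasma cell type. In RNA immunoprecipitation (RIP), a protein is pulled out of a cell lysate with the RNA bound to it, and the RNA is sequenced. The control antibody shows what comes down without a specific target. Of the 20308 rows of the deposited table, 10966 genes reached 1 FPKM (fragments per kilobase of transcript, scaled to library size) or more in at least 1 of the 2 libraries, and these are the genes described. Each gene's RIP ratio is log2((RBM39 FPKM + 1)/(IgG FPKM + 1)), so 1 stands for 2-fold more in the RBM39 library and -1 for 2-fold more in the IgG library. With 1 library per arm no test of the RIP was possible, and every RIP value below is a description of these 2 libraries.

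The series examined RBM39 in multiple myeloma and held 18 libraries, of which 12 are used here. Besides the RIP pair, these were whole-cell RNA of MM1S with a scrambled control hairpin (2 libraries) or an RBM39 hairpin (2 libraries), and of MM1S treated with the solvent DMSO (3 libraries) or with indisulam (3 libraries). The sample titles abbreviate the drug and the control hairpin (In, SCR), and indisulam is the only drug that the stated design names for MM1S. Dose, time and hairpin sequence were not given in the sources used here, nor was it stated whether numbered libraries came from separate cultures. An input library of the lysate was not used here, so whole-cell levels come from the DMSO libraries, which were normalized separately, in TPM (transcript abundance scaled to a fixed total per library).

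RBM39 is a serine- and arginine-rich nuclear RNA-binding protein related to the splicing factor U2AF2, and it helps the spliceosome recognise the 3' end of introns. Indisulam is a sulfonamide that glues RBM39 to the ubiquitin ligase adaptor DCAF15, after which the proteasome destroys RBM39. MEK5, the product of MAP2K5, is the kinase that activates ERK5 and is named with RBM39 in the title of the series.

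The arms differed in what they held in bulk. FPKM summed to 481945 in the RBM39 library and to 653239 in the IgG library, 1.36 times more. The median RIP ratio was 0.02, the middle 50% of genes lay between -0.95 and 0.90, and the SD over genes was 1.41. A ratio of 1 or more was found for 2485 genes (22.7% of the 10966) and of -1 or less for 2620 genes (23.9%). With each library scaled to the same total, these became 3610 and 1946 genes, since that scaling adds up to 0.44 to a ratio. It adds less where the RBM39 value is low. Beyond a ratio of 2 lay 650 genes (5.93%), and beyond -2 lay 981 genes (8.95%). Many genes lay close to the thresholds: 314 lay from 1 to 1.1 and 251 from 0.9 to 1, while 216 lay from -1.1 to -1 and 250 from -1 to -0.9.

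Low values limit part of these counts. A total of 733 genes had 1 value under 0.1 FPKM, and 481 of those were in the higher class and 246 in the lower class, so their ratios are uncertain. The filter and the pseudocount place such genes there: a gene at 0 in 1 library that reaches 1 FPKM in the other always passes a threshold. Among the 10233 genes with both values at 0.1 or more, 2004 (19.6%) were higher in the RBM39 library and 2374 (23.2%) were higher in the IgG library. An exact 0 in this table can be a failed estimate and is given below as "listed at 0". The depth of neither library is known, because the values do not resolve into whole reads.

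**Figure D1:**
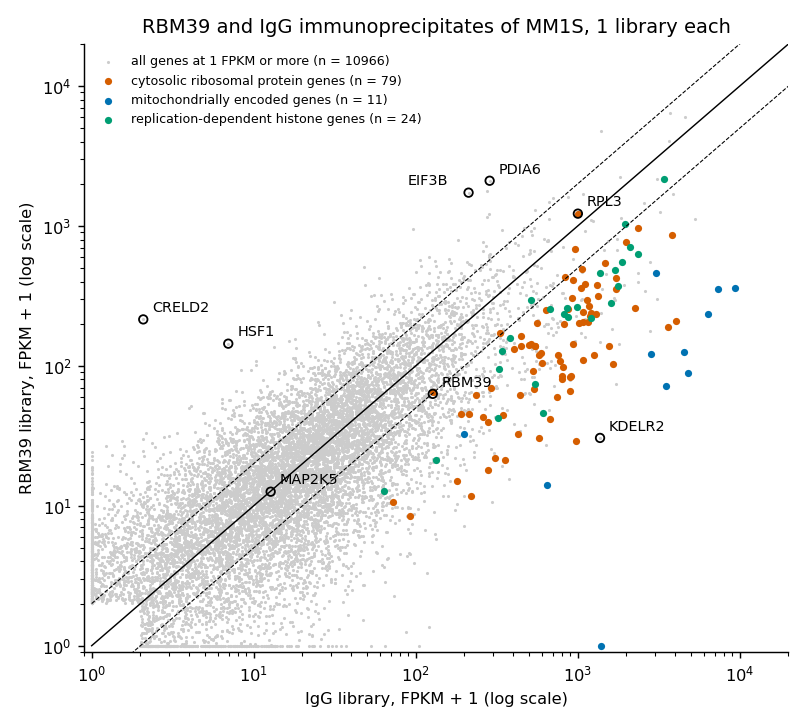
FPKM + 1 of each gene in the IgG library (x axis) and in the RBM39 library (y axis), both on log scales, for the 10966 genes at 1 FPKM or more; the solid line marks equal values and the dashed lines 2-fold differences. Cytosolic ribosomal protein genes (79), mitochondrially encoded genes (11) and replication-dependent histone genes (24) lie on the IgG side of the line, except RPL3, and CRELD2, HSF1, EIF3B and PDIA6 on the RBM39 side.

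The protein's own transcript was lower in the RBM39 library, and that of MEK5 was nearly equal in both libraries. RBM39 mRNA was at 62.1 FPKM in the RBM39 library and 127 FPKM in the IgG library, a RIP ratio of -1.01, against 188 ± 8.89 TPM (SD, n = 3) in DMSO-treated whole cells. MAP2K5 was at 11.6 and 11.7 FPKM, a ratio of -0.01. MAPK7, which encodes ERK5, was at 12.6 and 18.2 FPKM, a ratio of -0.50. So, in the values as deposited, the MEK5 transcript was as abundant in the control as in the RBM39 precipitate, at a level where both libraries had signal. With equal totals the 3 ratios rise by up to 0.44. RBM39, just past -1 here, is then at -0.58, between the thresholds. MAP2K5 is then at 0.40, so the sign of its ratio depends on the scaling and no direction is given for it.

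Other genes of the MEK5-ERK5 pathway were spread on both sides. Of 19 listed genes 17 reached 1 FPKM, and 6 had a ratio of 1 or more and 2 of -1 or less, with a median of 0.40. The shares over all genes were 22.7% and 23.9%. JUN, an AP-1 transcription factor, was at 52.5 FPKM with RBM39 and 9.23 with IgG (ratio 2.39), and MAP3K3, the kinase upstream of MEK5, at 56.1 and 12.2 (ratio 2.11). MYC, the most abundant listed gene, was at 956 and 467 (ratio 1.03). The genes on the other side were BAD, a pro-apoptotic BCL2 relative, at 17.6 and 78.0 (ratio -2.08), and PRKCI, an atypical protein kinase C, with a ratio of -1.95. The transcription factor effectors were spread as well: MEF2A, MEF2C, MEF2D and KLF2 lay between the thresholds at ratios of 0.15, -0.85, 0.40 and 0.82, while KLF4 and NR4A1, 2 of the 6 higher genes, are listed at 0 with IgG and are uncertain. Without those 2 the counts were 4 and 2 of 15, with a median of 0.15. Over all genes with both values at 0.1 FPKM or more, the shares were 19.6% and 23.2%.

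The genes with the highest ratios were few and mostly of middling abundance. Names were given to genes with both values at 0.1 FPKM or more and the larger at 5 or more, of which there were 8279. The 20 highest ratios ran from 3.40 to 6.69, and the next gene was at 3.40 as well. Their RBM39 values ran from 11.4 to 214 FPKM, while 18 of the 20 had under 2 FPKM in the IgG library and 11 had under 1 FPKM, so small errors in the IgG estimate move these ratios. CRELD2, an endoplasmic reticulum protein induced when protein folding is stressed, stood apart from the rest: 214 FPKM with RBM39 against 1.08 with IgG, a ratio of 6.69, or 103-fold after adding 1 to each value and 181-fold after adding 0.1. Whole cells held 62.1 ± 2.97 TPM of it (SD, n = 3). SH2D4A, an adaptor protein with an SH2 domain, followed at 25.8 and 0.229 FPKM (ratio 4.44).

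HSF1, the transcription factor that drives the heat shock response, had the third highest ratio: 143 FPKM against 5.97, a ratio of 4.37. HSPA1A, the inducible HSP70 chaperone and a classic HSF1 target, followed at 27.9 and 0.541 FPKM (ratio 4.23). HSPA1A has the near-identical copy HSPA1B, so reads of the pair can be split between them and its value is uncertain. In whole cells HSPA1A was at 0.77 ± 0.114 TPM (SD, n = 3), so this transcript was high in 1 RIP library and low in the other RIP library and in DMSO-treated cells. B9D1, a ciliary transition zone protein, was at 21.9 and 0.341 FPKM (ratio 4.10). NDUFAF1, an assembly factor of respiratory complex I, was at 25.6 and 0.576 FPKM (ratio 4.08). MBP, whose product in glia is myelin basic protein, was at 32.2 and 1.18 FPKM (ratio 3.93). The other 13 were C8orf82, DESI2, IFT57, TTC33, AARSD1, HUNK, ASRGL1, LEFTY2, PRICKLE1, CSGALNACT1, AP5Z1, ACOT9 and NEIL2, with ratios from 3.92 down to 3.40.

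Because those ratios rest on small IgG values, abundant transcripts were also read separately. Of 1467 genes that reached 100 FPKM in at least 1 of the libraries, 292 had a ratio of 1 or more and 500 of -1 or less. Choosing by 1 library favours that library: of 1022 genes at that level with RBM39 the counts were 291 and 153, and of 1115 with IgG they were 81 and 496. The genes named next are among the higher ones and were chosen after their values were seen. EIF3B, a scaffold subunit of translation initiation factor 3, reached 1730 FPKM with RBM39 and 211 with IgG (ratio 3.03), against 154 ± 2.27 TPM in DMSO-treated cells (SD, n = 3). MRFAP1, a small nuclear protein gene, was at 945 and 94.7 FPKM (ratio 3.31). PDIA6, a protein disulfide isomerase of the endoplasmic reticulum, was at 2105 and 285 FPKM (ratio 2.88). RCAN1, an inhibitor of the phosphatase calcineurin, was at 135 and 12.4 FPKM (ratio 3.35). All of these had an IgG value well above 1 FPKM, so their ratios do not turn on the pseudocount.

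**Figure D2:**
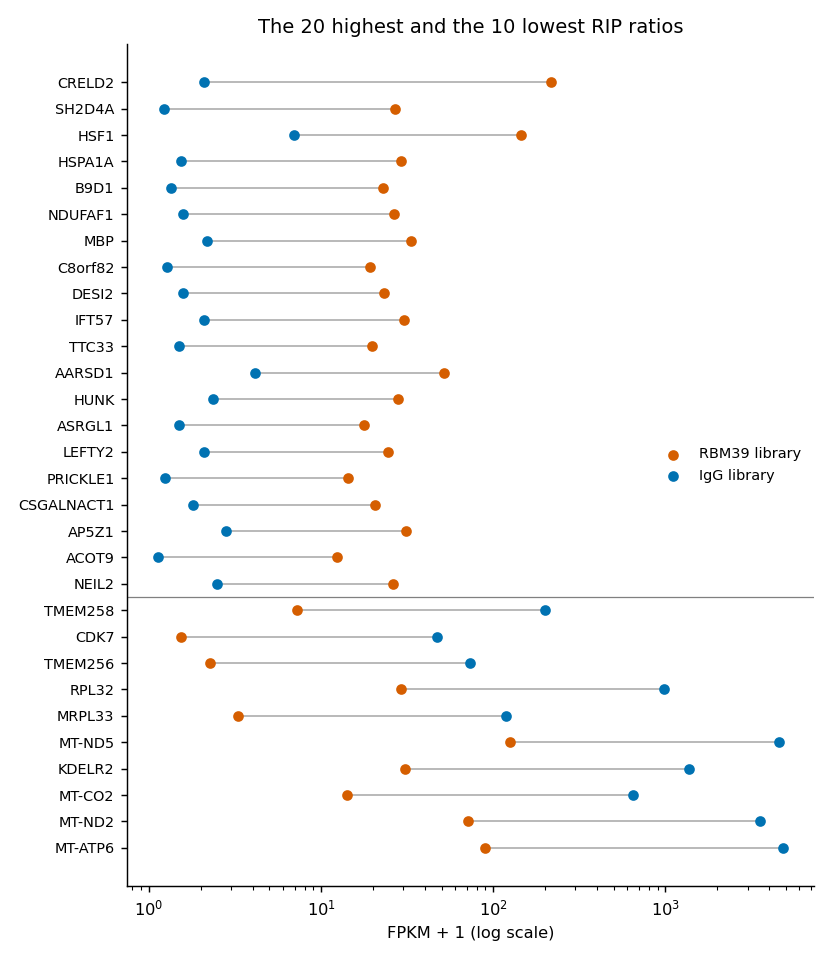
FPKM + 1 (log scale, x axis) in the RBM39 library (orange) and the IgG library (blue) for the 20 genes with the highest and the 10 with the lowest RIP ratio among genes that could be named; the grey line joins the values of a gene. Among the highest 20, IgG values lie between 0.134 and 5.97 FPKM, and among the lowest 10, between 46.4 and 4828 FPKM.

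The 10 lowest ratios belonged to transcripts at 46.4 to 4828 FPKM in the IgG library. MT-ATP6, a mitochondrially encoded subunit of ATP synthase, was at 88.6 FPKM with RBM39 and 4828 with IgG (ratio -5.75). KDELR2, the receptor that returns resident proteins to the endoplasmic reticulum, was at 29.6 and 1373 FPKM (ratio -5.49). Whole cells held 38.4 ± 1.82 TPM of KDELR2 (SD, n = 3), so here the IgG library was the one far from the whole-cell level. CDK7, the kinase of the general transcription factor TFIIH, was at 0.527 and 46.4 FPKM (ratio -4.96). The other 7 of the lowest 10 were MT-ND2, MT-CO2 and MT-ND5, the ribosomal protein genes RPL32 and MRPL33, and the small membrane proteins TMEM256 and TMEM258, with ratios from -5.62 to -4.79.

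Mitochondrially encoded genes were lower in the RBM39 library as a group. Of 13 such genes with a row, 11 reached 1 FPKM, and all 11 had a ratio of -1 or less, against 23.9% of all genes, and their median was -4.76, against 0.02 over all genes. They held 0.386% of all FPKM in the RBM39 library and 6.73% in the IgG library. The ratio of MT-ND4 rests on a value near 0 in the RBM39 library and is uncertain. MT-CYB, cytochrome b, was the most abundant at 359 and 9316 FPKM (ratio -4.69), and MT-CO1 and MT-ND6 had the mildest ratios, -2.71 and -2.61.

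Cytosolic ribosomal protein genes moved the same way. Of 79 genes, 74 had a ratio of -1 or less and none of 1 or more, with a median of -2.35, and with equal totals 69 still had a ratio of -1 or less. They held 3.38% of FPKM with RBM39 and 11.3% with IgG. RPL23A of the large subunit was at 207 and 4048 FPKM (ratio -4.28), and RPS27 of the small subunit at 189 and 3605 FPKM (ratio -4.25). The 5 exceptions were RPS9, RPL5, RPL11 and RPL13A, at ratios from -0.97 to -0.48, and RPL3, the only one above 0, at 1225 and 1002 FPKM (ratio 0.29). Ribosomal protein genes have many processed pseudogenes, and how shared reads were assigned was not given in the sources used here.

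Ribosomal protein mRNAs begin with a run of pyrimidines, the 5' terminal oligopyrimidine tract that couples their translation to growth signals, and polypyrimidine stretches are also what U2AF-type proteins bind at 3' splice sites. For this reason the first bases of these genes were compared with the RIP ratio. A window of 25 bases (5 before and 20 from the RefSeq start, GRCh38.p14) was found for 6262 of the 10899 genes with a symbol of their own. The windows of genes from across the range are printed below, 5' to 3' on the transcribed strand, with the longest run of C and T in capitals where it had 8 bases or more.
RPS27 (chr1:153990757-153990781, plus strand): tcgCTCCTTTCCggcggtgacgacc
RPL35 (chr9:124861938-124861962, minus strand): aCTTCCTCTTTCCCTCggagcgggc
RPL13A (chr19:49487603-49487627, plus strand): TCCTCCTTTTCCaagcggctgccga
RPL3 (chr22:39319604-39319628, minus strand): ccggcctctaccggcgggatttgat
EEF1A1 (chr6:73521013-73521037, minus strand): acgTTCTTTTTCgcaacgggtttgc
EIF3B (chr7:2354822-2354846, plus strand): cgcacatggctgggctgtagccgtc
The RIP ratios of these genes were -4.25, -2.28, -0.48, 0.29, 0.29 and 3.03 in that order. RPL35, with the longest printed run (15 bases), had a milder ratio than RPS27 with 9 bases, and EEF1A1, a translation elongation factor with a run of 9 bases, had a ratio above 0.

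A run of 8 or more pyrimidines was present in 46 of 53 ribosomal protein windows (86.8%), against 9.45% of all 22114 windows in the RefSeq table. Within the family the median ratio was -2.46 with a run of that length and -2.50 in the 7 genes without one. Shorter runs, such as the 5 bases of RPL3, count as none here. These 7 genes therefore cannot show whether the ratio depends on the tract. Among 19 translation factor genes the median was 0.28 in the 9 with a run and -0.06 in the other 10. Among the 6190 other genes it was -0.05 in the 565 with a run and 0.01 in the 5625 without, and 25.3% and 23.5% of them had a ratio of -1 or less. A run in this window is a description of the letters at the annotated start, and the sites that RBM39 contacts were not measured.

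Replication-dependent histone genes, whose mRNAs end in a stem-loop in place of a poly(A) tail, formed the third such group. Of 24 genes, 21 had a ratio of -1 or less and none of 1 or more, with a median of -1.81, and 18 had one of -1 or less with equal totals. The most abundant was the linker histone gene HIST1H1E at 2160 and 3411 FPKM (ratio -0.66), and the lowest ratio was that of HIST1H2BO at 45.3 and 610 FPKM (-3.72). Both RIP libraries held far more of these transcripts than whole-cell RNA did. In DMSO-treated cells 14 of the 24 were under 1 TPM, HIST1H1E was at 0.12 ± 0.137 TPM (SD, n = 3), and the highest was HIST1H1C at 34.5 ± 4.54 TPM. The labels give the same RNA extraction and the same mRNA library kit for the RIP and the whole-cell libraries.

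Nuclear genes for oxidative phosphorylation subunits were split. Of 33 genes, 18 had a ratio of -1 or less and 6 of 1 or more, against 23.9% and 22.7% of all genes. Their median was -1.43. Small accessory subunits were at the low end: NDUFB3 of complex I at 1.87 and 63.3 FPKM (ratio -4.49), NDUFA1 at 3.26 and 66.8 (ratio -3.99), and COX7A2 of complex IV at 6.45 and 94.2 (ratio -3.68). Those on the RBM39 side included ATP5A1 and ATP5B of ATP synthase, SDHA of complex II, and UQCRC1 and UQCRFS1 of complex III. ATP5B was at 1221 and 282 FPKM (ratio 2.11). Transcript length was not tested.

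The spliceosome and its regulators, where RBM39 acts, are to be read against the 22.7% of all genes with a ratio of 1 or more and the 23.9% with one of -1 or less. Of 30 genes for U1, U2 and U12 proteins and 3' splice site factors, 3 had a ratio of 1 or more and 6 of -1 or less. SNRNP70, the U1 70K protein, was at 663 and 258 FPKM (ratio 1.36), and SF3B5, a small subunit of the U2 complex SF3B, at 2.65 and 62.3 (ratio -4.12). U2AF1 and U2AF2, which recognise the 3' splice site, had ratios of 0.04 and -0.13. Of 29 genes of the U4/U6.U5 particle and the Prp19 complex, 4 had a ratio of 1 or more and 8 of -1 or less, from PRPF6 at 48.5 and 9.36 FPKM (ratio 2.26) to LSM3 at 3.55 and 28.2 (ratio -2.68). With equal totals the counts became 7 and 5 of the 30 and 7 and 3 of the 29, and both medians changed sign, from -0.18 to 0.25 and from -0.27 to 0.17, so no direction is given for either list.

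Among 28 genes for SR proteins and their relatives, 3 had a ratio of 1 or more (SRSF1, SRSF4 and SRSF9) and 7 of -1 or less. TRA2B, which promotes exon inclusion, was at 150 and 960 FPKM (ratio -2.67), against 137 ± 8.01 TPM in DMSO-treated cells (SD, n = 3). LUC7L2, a U1-associated protein, was near 0 in the RBM39 library and at 105 FPKM in the IgG library, so its ratio is uncertain. Of 31 hnRNP genes, 7 had a ratio of 1 or more and 2 of -1 or less. TARDBP, the gene for TDP-43, was at 221 and 44.4 FPKM (ratio 2.29), HNRNPAB at 514 and 107 (ratio 2.25), and HNRNPH3 at 24.3 and 117 (ratio -2.23). Of 33 genes of the RBM family, 7 had a ratio of 1 or more and 5, RBM39 included, of -1 or less, and with equal totals 13 and 3. The medians of the hnRNP and RBM family lists also changed sign with equal totals, from -0.34 to 0.09 and from -0.17 to 0.26. So did those of the CLK, SRPK and DYRK kinases, DCAF15 and cereblon ligases, translation factors, folding and secretion genes, plasma cell genes and p53 targets.

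**Figure D3:**
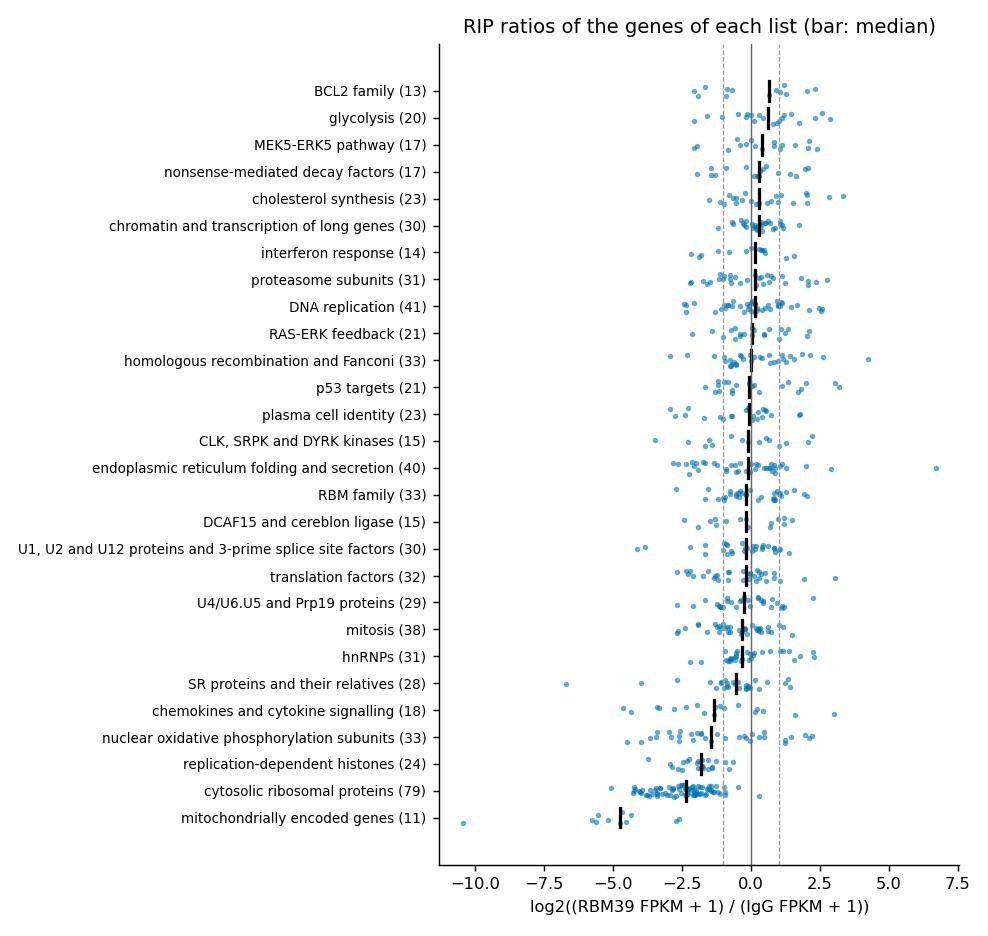
RIP ratio (x axis) of every measured gene of each list with 10 or more measured genes (points), with the list median as a bar and dashed lines at -1 and 1; the number of genes is in brackets. Mitochondrially encoded, ribosomal protein and histone genes lie almost wholly to the left of -1, while most other lists straddle 0.

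Kinases of the CLK, SRPK and DYRK list, some of which phosphorylate SR proteins, were divided. CLK1 was at 1.81 and 30.8 FPKM (ratio -3.50), and CLK2 at 25.4 and 129 (ratio -2.30). DYRK2 was at 21.8 and 3.91 (ratio 2.22), and CDK13, a kinase of RNA polymerase II, at 27.1 and 5.76 (ratio 2.05). Of the 15 kinases of this list, 4 had a ratio of 1 or more and 5 of -1 or less. Of 17 nonsense-mediated decay factors, 4 were on each side: DHX34 and the endonuclease gene SMG6 led the RBM39 side at ratios of 2.05 and 1.96, and UPF3B was lowest at -1.97. Among 15 genes of the DCAF15 and cereblon ligases, 3 had a ratio of 1 or more, with CUL4A at 299 and 107 FPKM (ratio 1.47). A ratio of -1 or less was found for 5, with the RING subunit RBX1 at 8.10 and 47.8 (ratio -2.42). The counts of these 3 lists are to be read against 22.7% and 23.9% of all genes.

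Genes of the secretory pathway, which plasma cells use heavily, lay on both sides. Of 40 genes for folding and secretion in the endoplasmic reticulum, 6 had a ratio of 1 or more and 12 of -1 or less, and with equal totals the balance turned, to 13 and 10. Without that scaling the 6 were CRELD2, PDIA6, HSPA5, HYOU1, SSR2 and DNAJC3, and most of them encode chaperones or folding enzymes. HSPA5, the chaperone BiP, was at 170 and 42.6 FPKM (ratio 1.97). HSP90B1, the chaperone GRP94, was the most abundant and lay on the other side, at 1257 and 3228 FPKM (ratio -1.36), as did subunits of the signal peptidase, with SPCS1 at 100 and 723 (ratio -2.84). Among 23 plasma cell genes, 2 had a ratio of 1 or more, the integrin gene ITGB7 at 4751 and 1389 FPKM (ratio 1.77) and SDC1, the gene for CD138, at 327 and 96.8 (ratio 1.75). IGJ, the immunoglobulin joining chain, was at 343 and 2612 (ratio -2.92). Over all genes, 22.7% had a ratio of 1 or more and 23.9% one of -1 or less.

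Chemokine genes were on the IgG side. Of 18 chemokine and cytokine signalling genes, 11 had a ratio of -1 or less and 2 of 1 or more, with a median of -1.33. These shares over all genes were 23.9% and 22.7%. CCL3, a macrophage inflammatory protein gene, was at 214 and 1105 FPKM (ratio -2.36) and CCL4 at 1.84 and 29.2 (ratio -3.41). The 4 near-identical copies CCL3L1, CCL3L3, CCL4L1 and CCL4L2 are among the 11, and how reads were shared between copies is not known. The 2 on the RBM39 side were IL6R, the receptor of the myeloma growth factor IL-6, at 480 and 159 FPKM (ratio 1.58), and SOCS1, a feedback inhibitor of cytokine signalling, at 13.5 and 0.824 (ratio 2.99).

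Several growth, survival and repair lists held more genes on the RBM39 side than on the IgG side. Glycolysis had 8 and 3 of 20 genes, with HK1, a hexokinase, at 17.4 and 1.57 FPKM (ratio 2.84) and GAPDH at 174 and 729 (ratio -2.06). The BCL2 family had 5 and 3 of 13, with BCL2 itself at 98.2 and 19.2 FPKM (ratio 2.30). Cholesterol synthesis had 7 and 2 of 23, and MVD and HSD17B7, which lead it, are listed at 0 with IgG and are uncertain. Without those 2 the counts were 5 and 2 of 21. Homologous recombination and Fanconi genes had 9 and 3 of 33 and a median of -0.001, with FANCC at 41.1 and 5.91 FPKM (ratio 2.61). With both values at 0.1 FPKM or more, these were 7 and 3 of 31, against 19.6% and 23.2% of all such genes. DNA replication had 9 and 6 of 41, with the flap endonuclease gene FEN1 at 317 and 52.1 (ratio 2.58) and the sliding clamp PCNA at 42.5 and 180 (ratio -2.06). Mitosis genes had 3 and 12 of 38, and UBE2C, the anaphase-promoting ligase's conjugating enzyme, was at 82.6 and 539 (ratio -2.69). These shares are to be read against 22.7% and 23.9% of all genes, and the higher share of the DNA replication list was close to the former. With both values at 0.1 FPKM or more, the higher shares of the recombination and cholesterol synthesis lists were also close to the 19.6% of all such genes. With equal totals the DNA replication list had 14 and 4, and the mitosis list 5 and 6, with its median moving from -0.34 to 0.09.

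The ratio moved with the whole-cell level of the gene. Over 10712 genes with a level in DMSO-treated cells, the median ratio was 0.22 at 1 to 5 TPM, -0.02 at 20 to 50 TPM, -0.62 at 200 to 500 TPM and -1.84 above 500 TPM. Above 500 TPM, 70.6% of 218 genes had a ratio of -1 or less. Without the ribosomal protein, histone, mitochondrially encoded and oxidative phosphorylation genes, the median above 500 TPM was -1.12 and the share 53.3% of 122 genes. The IgG library ranked genes more like whole cells than the RBM39 library did: across these genes, Spearman's rho with the DMSO level was 0.721 for IgG and 0.657 for RBM39, and 0.772 between the RIP libraries. These are descriptions across genes, which are not independent replicates, and the 2 RIP columns share a table and its normalization.

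**Figure D4:**
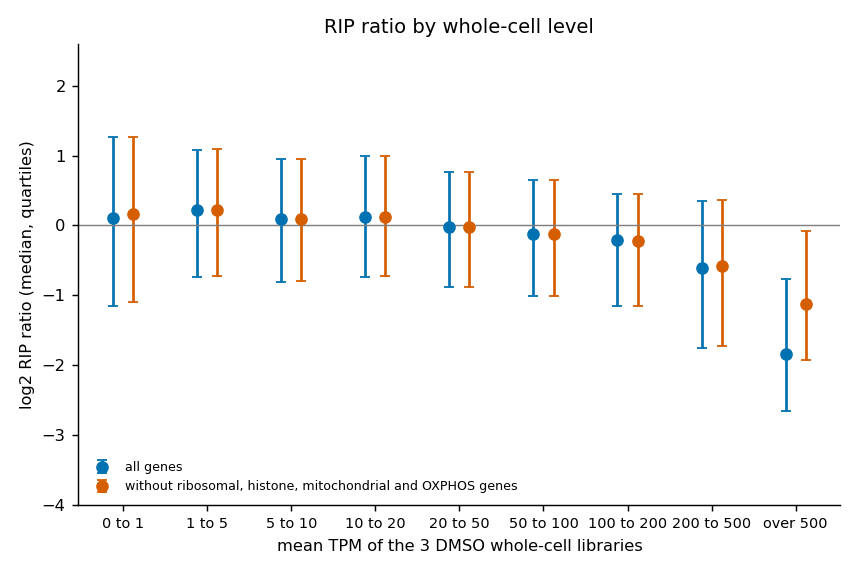
Median RIP ratio (points) and quartiles (bars) by mean TPM in the 3 DMSO whole-cell libraries, for all genes (blue) and without ribosomal protein, histone, mitochondrially encoded and oxidative phosphorylation genes (orange). The median falls from 0.22 at 1 to 5 TPM to -1.84 above 500 TPM, or -1.12 without those genes.

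Both libraries held the markers of a plasma cell line. All 10 plasma cell markers were detected in each. Of 24 markers of T, B, myeloid, red, epithelial, fibroblast, muscle and endothelial cells, 23 were in the table and 18 of these were under 1 FPKM in both libraries. Their summed level was 7.70 FPKM with RBM39 and 73.4 FPKM with IgG. Of these, 18 were listed at 0 with RBM39 and 13 with IgG. The IgG sum was mostly 2 genes: HBB, a haemoglobin chain, listed at 0 and at 36.3 FPKM, and CD68, a macrophage lysosomal protein, at 5.33 and 33.4 FPKM. HBB was also present in DMSO-treated cells, at 27.2 ± 1.92 TPM (SD, n = 3). The platelet chemokine genes PF4 and PPBP, looked at after the values were seen, were listed at 0 with RBM39 and stood at 27.8 and 29.6 FPKM with IgG. In DMSO-treated cells both had a mean of 0 TPM. The part of these transcripts in the ratios of other genes was not tested.

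Whether transcripts on either side of the RIP changed when RBM39 was lowered was read from the whole-cell libraries, which the RIP ratio does not use. Limma was run on every tested gene of a contrast (two-sided), and a gene was called where its Benjamini-Hochberg adjusted p was under 0.05. The hairpin lowered RBM39 mRNA: 176 and 205 TPM in the scramble libraries and 64.8 and 52.2 TPM in the hairpin libraries, so the log2 difference was -1.69, with an SE of 0.161 and a limma adjusted p of 0.0121. With indisulam, which acts on the protein, RBM39 mRNA was at 189, 178 and 196 TPM in DMSO and 227, 217 and 149 TPM in treated cells, so the log2 difference was 0.05, with an SE of 0.16 and a limma adjusted p of 0.828. In whole-cell RNA, fewer cells in a state and less RNA per cell cannot be told apart.

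Over all 14152 genes tested in the knockdown, 10.3% were called: 3.97% rose and 6.35% fell. Of 2236 tested genes with a RIP ratio of 1 or more, 69 rose (3.09%) and 128 fell (5.72%). Of 2356 with a ratio of -1 or less, 94 rose (3.99%) and 209 fell (8.87%), and of all 10229 RIP genes tested, 3.54% rose and 7.58% fell. The shares called among genes more abundant in the RBM39 precipitate were below those of RIP genes at large in both directions, and the difference between the classes was not tested. Among genes at a ratio of 2 or more, 20 of 573 rose and 33 fell (3.49% and 5.76%). The knockdown calls rest on both scramble libraries: without either of them limma called 0 genes, with 2462 and 2569 at an unadjusted p under 0.05, against 4556 with all 4 libraries. Without hairpin library 1 the RIP-higher genes that fell numbered 204, and without hairpin library 2 those that rose numbered 147.

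With indisulam, 29.9% of 13445 genes tested were called: 8.47% rose and 21.5% fell. Of 2159 genes with a RIP ratio of 1 or more, 120 rose (5.56%) and 477 fell (22.1%). Of 2307 with a ratio of -1 or less, 132 rose (5.72%) and 623 fell (27.0%), and of all 9956 RIP genes tested, 5.72% rose and 23.8% fell. The share of falls also differed by whole-cell level: among genes over 50 TPM, 44.5% of 274 RIP-higher and 48.3% of 659 RIP-lower genes fell, and up to 10 TPM, 15.0% of 1027 and 12.5% of 805 fell. Under quantile normalization the split of all indisulam calls moved from 28.3% to 52.1% rises, and the RIP-higher and RIP-lower genes that rose became 463 and 471. Calls ranged with the libraries used, from 1752, 1846 and 1948 genes without DMSO library 3, 2 or 1 to 8623 without indisulam library 3, against 4024 with all 6. Without that last library 758 RIP-higher and 773 RIP-lower genes rose.

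**Figure D5:**
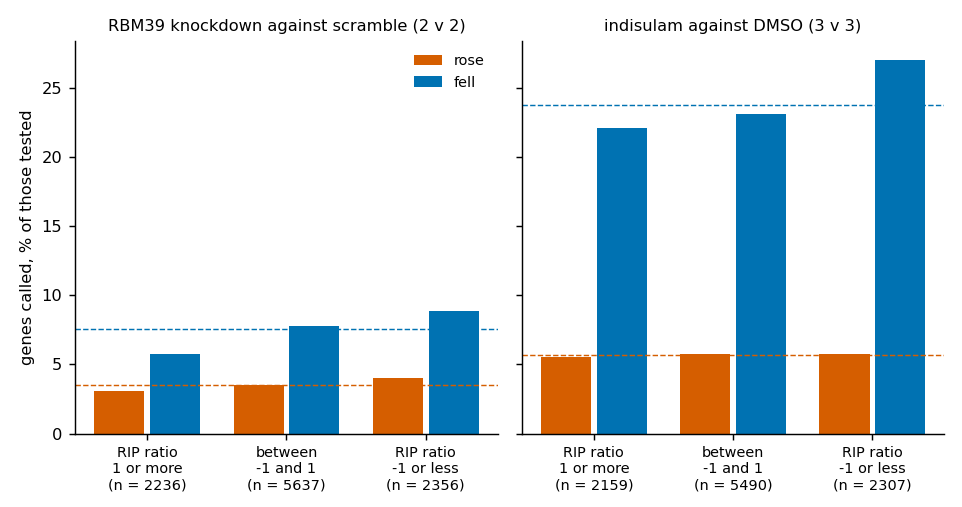
Percent of tested genes that rose (orange) or fell (blue) in MM1S with the RBM39 hairpin (left, 2 against 2 libraries) and with indisulam (right, 3 against 3), by RIP class; dashed lines mark the shares over all RIP genes tested. RIP-higher genes fell in 5.72% and 22.1% of cases, against 7.58% and 23.8% over all RIP genes.

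Of the 20 genes with the highest RIP ratios, 20 were tested in the knockdown, where 2 rose and 3 fell, against 11.1% of all RIP genes called. With indisulam 19 were tested, where 1 rose and 4 fell, against 29.5% of all RIP genes called. B9D1 was at 12.1 and 12.2 TPM in the scramble libraries and 5.47 and 5.88 TPM with the hairpin (log2 change -0.98, SE 0.161, limma adjusted p = 0.0289), and the groups did not overlap. ASRGL1, an asparaginase-like enzyme, was at 18.8 and 19.9 against 9.85 and 8.27 TPM (log2 change -1.02, limma adjusted p = 0.0268), and fell with indisulam by as much (-1.02, limma adjusted p = 0.0079). AP5Z1, a subunit of the AP-5 adaptor complex, went the other way, from 11.8 and 13.4 to 44.3 and 27.6 TPM (log2 change 1.41, limma adjusted p = 0.033), and also rose with indisulam (0.48, limma adjusted p = 0.0178). HSF1 was at 50.3 and 45.4 against 50.2 and 43.9 TPM (log2 change -0.03, limma adjusted p = 0.922), so no change was detectable in the whole-cell level. Of the lowest 10, none was called in the knockdown and 3 fell with indisulam.

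Transcripts that changed the same way in both whole-cell contrasts were present on both sides of the RIP. The contrasts share no control libraries. Of 2122 RIP-higher genes tested in both, 14 rose in both and 72 fell in both (0.66% and 3.39%), of 2281 RIP-lower genes 22 and 113 (0.964% and 4.95%), and of all 9868 RIP genes 83 and 429 (0.841% and 4.35%). The RIP-higher genes with the largest changes in both all fell, and they included SLX1B, CDCA5, MCM3, EME1, VLDLR, SHCBP1, PDLIM7, KIF22 and CHAF1B. The RIP ratios of SLX1B, VLDLR and CHAF1B were just past the threshold, at 1.03, 1.03 and 1.01. Low values underlie the ratios of VLDLR (2.36 FPKM with RBM39 and 0.641 with IgG) and PDLIM7 (3.33 and 0.441). Of the whole DNA replication list, which lay on both sides of the RIP, 28 of 41 genes fell in the knockdown and 39 with indisulam. The shares that fell over all RIP genes tested were 7.58% and 23.8%. SLX1B, a nuclease subunit, has the near-identical copy SLX1A, so its values are uncertain.

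CDCA5 encodes sororin, which holds sister chromatids together, and was at 466 FPKM with RBM39 and 98.8 with IgG (ratio 2.23). In whole cells it was at 100 and 93.7 TPM with the scramble and 24.2 and 17.6 TPM with the hairpin (log2 change -2.17, SE 0.182, limma adjusted p = 0.0116). With indisulam it went from 49.3, 51.3 and 55.6 to 9.46, 11.4 and 7.89 TPM (log2 change -2.34, limma adjusted p = 0.000161). MCM3, a subunit of the replicative helicase, was at 170 and 53.4 FPKM in the RIP (ratio 1.66). It went from 152 and 158 to 52.1 and 44.5 TPM with the hairpin (log2 change -1.66, SE 0.135, limma adjusted p = 0.0116). With indisulam MCM3 went from 103, 94.1 and 110 to 22.6, 31.5 and 24.3 TPM (log2 change -1.94, limma adjusted p = 0.000233). In both genes and both contrasts the groups were far from overlapping.

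The RIP-lower genes that fell most in both were KIAA0101 (PCLAF, a partner of PCNA), LGALS1 (galectin-1), CENPU (a centromere protein), CDCA3 (a trigger of mitotic entry) and TMSB15A (a thymosin that binds actin). LGALS1 was at 54.3 FPKM with RBM39 and 209 with IgG (ratio -1.92). It went from 1437 and 1283 to 155 and 232 TPM with the hairpin (log2 change -2.83, SE 0.208, limma adjusted p = 0.0116) and by -2.53 with indisulam (limma adjusted p = 6.33e-05). LGALS1 was thus lower in the RBM39 than in the IgG library and among the RIP-lower genes that fell most in both contrasts. A link between the RIP ratio and the response was not tested. MAP2K5, at a RIP ratio of -0.01, was at 9.36 and 6.74 TPM with the scramble and 9.38 and 9.90 TPM with the hairpin (log2 change 0.25, SE 0.204, limma adjusted p = 0.451). With indisulam it was at 10.3, 11.6 and 10.9 against 9.23, 7.91 and 10.1 TPM (log2 change -0.25, SE 0.158, limma adjusted p = 0.266), so a change of its transcript was not called in either contrast.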

How the data were processed

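RNA of 2 immunoprecipitates and of 10 whole-cell samples of MM1S was read from 3 deposited tables. The RIP values are FPKM, per the file headers, 1 library per arm. The whole-cell values are TPM: the deposited columns all have the same sum, as tested here. The submitters' processing notes name the builds GRCm38 and mm10 although cells and symbols are human. For aligner, counter and annotation the sources used here give no name. Of the gene symbols, 98.8% were matched to the human reference tables, older symbols through RefSeq synonyms.

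RIP ratios used a pseudocount of 1 and a minimum of 1 FPKM in at least 1 of the libraries. Whole-cell contrasts used limma 3.58.1 (R 4.3.3, trend and robust) on log2(TPM + 1). Genes needed 1 TPM or more in at least 2 (knockdown) or 3 (indisulam) libraries. The fit was also run on values simulated from the means and SDs of these libraries, with results not given here. Fold changes on this scale understate those of low genes, p-values cover the spread between these libraries alone, and depth is unknown in both units. Members and gene lists were chosen with earlier results of these data known. Named were RBM39 and MAP2K5, the 20 highest and 10 lowest ratios (both values at 0.1 FPKM or more, the larger at 5 or more, a unique symbol in the reference), up to 3 extreme members and the most abundant member of each of 33 lists, and up to 10 RIP-higher and 5 RIP-lower genes called in both contrasts; other names were chosen after their values were seen. The labels do not say whether same-numbered libraries were pairs, so no pairing was used. Alternatives were another pseudocount, filters, scalings, limma settings, a replicate block and leaving out each library. Some genes that met this rule are not reported here.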

Additional observations from a re-analysis of the deposited data

How the results depend on the processing

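The RIP counts of higher and lower genes stayed within 1.5 times under the 6 alternatives tried (3610 and 1946 with equal totals). Dropping the filter could not change them, since a ratio of 1 or -1 needs a value of at least 1 FPKM. Median scaling used a shift of only -0.02. The ratios of 122 of 157 named genes moved by less than 1.5-fold with a pseudocount of 0.1, while 35 moved by more (26 with a value under 1 FPKM, 9 with one from 1 to 1.47, CRELD2 among them). In the knockdown, limma called 0 genes with no filter on low values (4966 at an unadjusted p under 0.05), hence 0 in each RIP class. The filter at 5 TPM raised the RIP-higher genes that rose to 107. Limma without trend and robust gave 38 RIP-higher and 52 RIP-lower genes that rose and 132 RIP-lower genes that fell. Same-numbered libraries were not shown to be pairs. The correlation of their deviations (-0.142) cannot settle this, since with 2 libraries per arm the deviations mirror each other. With a replicate block 255 genes were called, with 7 and 19 RIP-higher genes that rose and fell and 10 and 48 RIP-lower. A crossed replicate block, added after the data were seen, gave 772, with 30 and 60, and 40 and 131. Leaving out 1 library gave 0 to 2162 calls: 0 to 147 and 0 to 204 RIP-higher genes rose and fell, and 0 to 150 and 0 to 287 RIP-lower. With indisulam, RIP-higher and RIP-lower genes that rose numbered 49 and 71 with no filter and 463 and 471 with quantile normalization. Leaving out 1 library gave 1752 to 8623 calls: 25 to 758 and 212 to 637 RIP-higher genes rose and fell, and 41 to 773 and 373 to 836 RIP-lower. An arm left with 1 library is assumed to vary like the other. With 1 RIP library per arm and unknown depth, the error of a single ratio cannot be given; the cause of these differences was not tested.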
